A study of Mus musculus with 4 samples.

Results

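The 10 genes described here are Atf4 and 9 genes tied to the integrated stress response: Chac1, Ddit3, Ddit4, Trib3, Sesn2, Asns, Psat1, Ppp1r15a and Xbp1. They are listed by name. Each is annotated with 1 probe set that carries its symbol alone, and each passed the filter on low values. So 10 of 10 members were among the 14652 genes tested, of 22180 genes with such a probe set. The members, and the lists of other genes below, were chosen with earlier results of these data known. Their counts beside the shares of all genes are therefore a description and not independent support. The samples were cultures of dendritic cells, the antigen-presenting cells of the immune system, grown from bone marrow of C57BL/6 mice and harvested on day 7. The DMSO group received the solvent for 2 h and the sulforaphane group 0.3 µM sulforaphane, an isothiocyanate known as an activator of the antioxidant factor NRF2, in the same solvent. The dose is the one in the labels, small for this agent, and nothing else was at hand to check it. Both groups then received 100 ng/ml LPS (lipopolysaccharide of E. coli O111:B4) for 1 h, so every sample is LPS-stimulated and no sample without LPS was analysed here. Each group had 2 arrays, and nothing in the labels says whether these came from separate mice or cultures, so the spread measured here may be technical.

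In the integrated stress response, kinases that sense amino acid shortage, protein misfolding in the endoplasmic reticulum (ER), viral RNA or heme shortage phosphorylate the translation factor eIF2, which lowers protein synthesis in general while the mRNA of ATF4 is translated more. ATF4, a bZIP transcription factor, then induces genes of amino acid uptake and synthesis, redox balance and, with its target CHOP (encoded by Ddit3), feedback and cell death. XBP1 belongs to a neighbouring arm of the unfolded protein response, in which the ER sensor IRE1 splices its mRNA. ATF4 is regulated strongly at translation, which an mRNA array does not measure. In dendritic cells these pathways are known to touch cytokine production.

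Among these 10 genes, Chac1 was 1.74-fold higher and Ddit4 1.92-fold lower after sulforaphane, and Atf4 itself was 1.39-fold higher (log2 differences of 0.80 ± 0.11, -0.94 ± 0.14 and 0.47 ± 0.11, moderated standard error, n = 2 per group). Trib3 was 1.44-fold higher with replicates that lay apart. The enzymes of amino acid synthesis, Asns and Psat1, and the stress sensor Sesn2 differed by less than 0.1 on the log2 scale. None of the 10 passed the threshold of 0.05 after Benjamini-Hochberg adjustment over all genes in limma, against 0.130% of all genes tested. Limma is a linear model that draws each gene's own variance toward a value estimated from all genes. With only 2 arrays per group, an exact two-sided permutation test of a single gene cannot give a p below 0.333.

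At an unadjusted limma p under 0.05, 3 members were higher, where 7.09% of all genes tested were, and 1 was lower, where 5.87% were. Both 1.5-fold or more and non-overlapping were 1 member upward (Chac1) and 1 downward (Ddit4), against 1.32% and 1.49% of all genes. Without regard to size, both sulforaphane arrays lay above both DMSO arrays for 6 members and below them for 2, against 24.0% and 19.5% of all genes tested. The median difference of the 10 was 0.15, and that of all genes tested was 0.018. Without DMSO replicate 1 the median of the 10 was 0.094 and that of all genes -0.0031. With each array centred on the median of the genes tested, a scaling chosen after seeing the data, they were 0.088 and -0.044.

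Array medians were 3.24 to 3.27 in log2 units. The array of DMSO replicate 1 differed from the rest in its interquartile range, 3.41 where the other arrays had 3.61 to 3.62. The SD of the log2 difference between arrays was 0.261 within DMSO, 0.209 within sulforaphane and 0.266 to 0.317 across the groups, so DMSO replicate 2 lay nearly as close to a sulforaphane array as to its own partner. All 9 dendritic cell markers with a probe set passed the filter, among them Itgax, which encodes the integrin CD11c and stood at 11.26 and 11.26 in DMSO and 11.33 and 11.32 after sulforaphane. The mean log2 level of the 9 was 8.58 to 8.70 in the DMSO arrays and 8.35 to 8.41 in the sulforaphane arrays, and their median difference was -0.34. Without overlap 5 were lower and 2 higher, beside 19.5% and 24.0% of all genes tested. The 5 were Irf4 (-0.87), Batf3 (-0.64), Ciita (-0.46), Flt3 (-0.42) and Zbtb46 (-0.34), and the 2 were H2-Ab1 (0.26) and Itgax (0.066). Macrophage markers (6) had a mean level of 10.09 to 10.19 in DMSO and 10.003 to 10.011 after sulforaphane, and granulocyte markers (8) 9.23 to 9.49 and 9.34 to 9.46. Mast cell markers (6) had 6.87 to 6.90 and 6.59 to 6.73. Of these, Hdc differed by -0.61 and Gata2 by -0.57, and the others by -0.11 (Ms4a2) to 0.015 (Cpa3). Single macrophage markers differed by -0.39 to 0.14 and single granulocyte markers by -0.40 to 0.26. B cell markers (4, of which 1 lay below the filter) and T and NK cell markers (5, of which 2 lay below it) had means between 2.85 and 3.51 on all arrays. In such cultures a change in the share of a cell type and a change of mRNA per cell cannot be told apart, and the part of these markers in the differences below was not tested.

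Atf4, the factor that gives the response its name, had log2 values of 6.51 and 6.58 on the DMSO arrays and 7.02 and 7.02 on the sulforaphane arrays. Both sulforaphane arrays were higher, and they differed from each other by less than the DMSO arrays did. The difference was 0.47 (95% interval 0.22 to 0.73), with an adjusted p of 0.165 by limma, and 5.35% of the genes tested differed by more in size. The difference stayed between 0.44 and 0.51 with any single array left out.

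Ddit3 encodes CHOP, a C/EBP-family factor that ATF4 induces. Its log2 values were 6.54 and 6.68 with DMSO and 6.82 and 6.81 with sulforaphane. The groups did not overlap, but the gap between them was of the order of the spread within DMSO: the difference was 0.21 (-0.064 to 0.48), and 29.4% of all genes tested differed by more. Ppp1r15a encodes GADD34, which brings a phosphatase to eIF2 and so closes the feedback loop. It stood at 7.56 and 7.38 with DMSO and at 7.69 and 7.78 with sulforaphane, a difference of 0.26 (-0.030 to 0.55) that also did not pass (adjusted p = 0.436 by limma). The interval of both genes includes 0. Ddit3 differed by 0.14 without DMSO replicate 1 and Ppp1r15a by 0.17 without DMSO replicate 2.

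Chac1, a cytosolic enzyme that breaks down glutathione, had log2 values of 4.67 and 4.51 with DMSO and 5.39 and 5.40 with sulforaphane. It was the member with the largest upward difference, 0.80 (0.52 to 1.08), and the sulforaphane arrays had an SD of 0.0098 against 0.118 in DMSO. Its adjusted p of 0.0683 by limma was above the threshold. It passed with the filter at the 60th percentile (adjusted p = 0.0363), where fewer genes are tested, and over all alternatives its adjusted p ran from 0.0363 to 0.396. Of all genes tested, 143 differed by more in size.

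Trib3, a pseudokinase induced by ATF4 and CHOP that restrains both, had values of 5.67 and 5.49 with DMSO and 5.86 and 6.36 with sulforaphane. Sulforaphane replicate 2 lay well above replicate 1, while replicate 1 was only slightly above the higher DMSO array. The difference of 0.53 (0.078 to 0.98, adjusted p = 0.321 by limma) was 0.28 without sulforaphane replicate 2 and 0.78 without sulforaphane replicate 1, so its size rests on single arrays. Trib3 had the widest spread of the 10 genes, with an SD of 0.350 in the sulforaphane group.

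Ddit4 encodes REDD1, an inhibitor of the growth kinase mTORC1 that is induced by ATF4 and by other signals such as hypoxia and glucocorticoids. It had log2 values of 8.35 and 8.05 with DMSO and 7.26 and 7.27 with sulforaphane. Both sulforaphane arrays were far below the DMSO arrays, opposite to Atf4 and Chac1 on the same arrays. Its difference of -0.94 (-1.27 to -0.61) was the largest of the 10 in size, with 76 of the 14652 genes differing by more, and its adjusted p of 0.0683 by limma lay above the threshold. It passed with the filter at the 60th percentile (0.0380), a second quantile normalization (0.0494), an intensity trend in the variance (0.0104) and median centring over the genes tested (0.0357), and the alternatives spanned 0.0104 to 0.389. The difference was -0.79 without DMSO replicate 1 and -1.09 without DMSO replicate 2.

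Sesn2 encodes sestrin 2, a leucine sensor and antioxidant protein that both ATF4 and NRF2 are known to induce. Its values overlapped, at 8.65 and 8.76 with DMSO and 8.64 and 8.89 with sulforaphane. The difference was 0.058 (-0.26 to 0.38), and it turned to -0.070 without sulforaphane replicate 2 and to -0.0042 with median centring over the genes tested. The interval covers differences as large as that of Ppp1r15a in either direction.

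Among the enzymes of amino acid synthesis, Asns, asparagine synthetase, had values of 9.69 and 9.69 with DMSO and 9.72 and 9.75 with sulforaphane. The groups did not overlap, yet the difference was 0.049 (-0.21 to 0.30) and turned to -0.013 with median centring over the genes tested, so the non-overlap says little. Psat1, the phosphoserine aminotransferase of serine synthesis, overlapped at 7.70 and 7.83 with DMSO against 7.90 and 7.81 with sulforaphane, a difference of 0.091 (-0.19 to 0.37). That of Psat1 was 0.026 without DMSO replicate 1, 0.16 without DMSO replicate 2, 0.044 without sulforaphane replicate 1, 0.14 without sulforaphane replicate 2 and 0.028 with median centring over the genes tested. Neither passed (adjusted p = 0.901 and 0.812 by limma), and the intervals exclude a difference of the size of Chac1's.

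Xbp1, which encodes the transcription factor of the IRE1 arm, was 11.11 and 11.18 with DMSO and 11.02 and 10.98 with sulforaphane. Both sulforaphane arrays were lower by a small margin, a difference of -0.14 (-0.40 to 0.12, adjusted p = 0.644 by limma). The probe set gives 1 value for the gene, and the spliced form was not measured separately here.

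**Figure D1:**
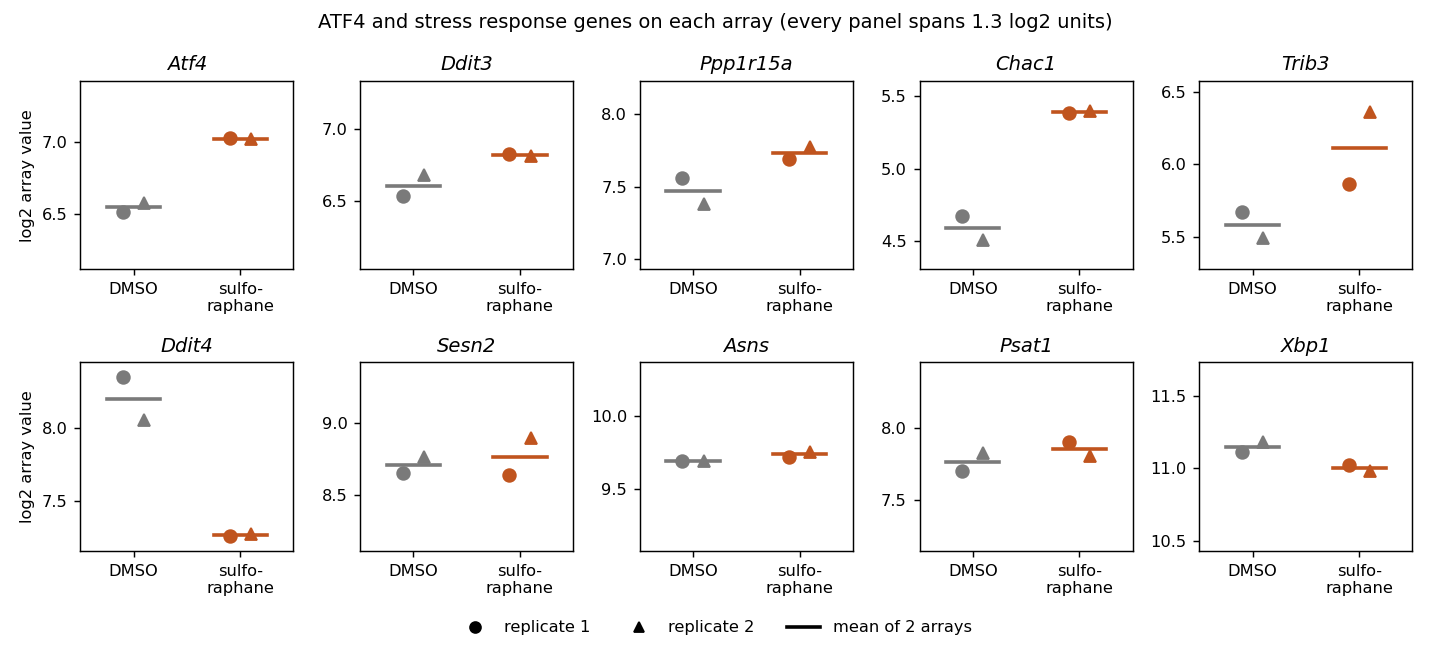
Log2 array values (vertical axis) of the 10 genes on the DMSO arrays (grey) and the sulforaphane arrays (orange); circles are replicate 1, triangles replicate 2 and lines the mean of 2 arrays, and the panels share a span but not a range, since levels of different probe sets are not comparable. Atf4 and Chac1 sit higher and Ddit4 lower on both sulforaphane arrays, Trib3 is spread between 5.86 and 6.36, and Sesn2 and Psat1 overlap.

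**Figure D2:**
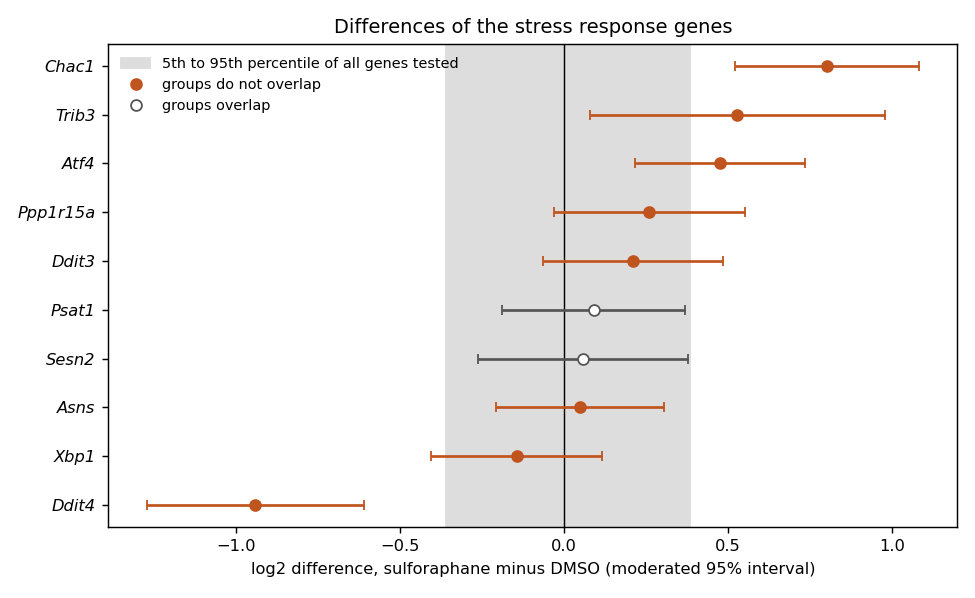
Log2 difference, sulforaphane minus DMSO (horizontal axis), with its moderated 95% interval for each gene; filled points mark groups that do not overlap, and the grey band runs from the 5th to the 95th percentile of all genes tested (-0.36 to 0.38). Chac1, Trib3, Atf4 and Ddit4 lie outside the band, and the intervals of the other 6 genes include 0.

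The promoters of the members were searched for letters that the listing of genes did not use. The windows, from RefSeq on GRCm38.p6, run from 250 bases before to 50 after an annotated transcript start, and a window was found for 10 of 10 members (Psat1 has 2 starts, so 11 windows). On both strands, TGATGNAA, the core of the composite element bound by ATF4 with a C/EBP factor, occurred in 3 members, Chac1, Trib3 and Asns. It was in 3.97% of all 32851 windows and in 1219 of 27025 genes. TGACNNNGC, the core of the antioxidant response element bound by NRF2, occurred in 3 members, Sesn2, Asns and Ppp1r15a, in 12.4% of all windows and in 3781 of 27025 genes. TGACGTGG, an element of the XBP1 and ATF6 type, was in 0 member windows and in 0.676% of all. In the members no match of a motif overlapped a match of another, and a match is only a description of the letters.

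The sequence before the start is shown for Chac1, the member with the largest upward difference, for Asns, which carries the same composite letters but differed by 0.049, and for Ddit4, the member with the largest downward difference, with none of the 3 motifs. Each is given 5′ to 3′ on the gene's strand, ending at the base before the start, with matches in capitals. Chac1 lies on the plus strand (chr2:119350992-119351241), and its capitals are the composite letters on the opposite strand, beginning 193 bases before the start. Asns lies on the minus strand (chr6:7693210-7693459), where the first capitals, beginning 172 bases before the start, are the antioxidant letters on the opposite strand and the second, beginning 23 bases before it, the composite letters. Ddit4 lies on the minus strand (chr10:59951771-59952020).
Chac1: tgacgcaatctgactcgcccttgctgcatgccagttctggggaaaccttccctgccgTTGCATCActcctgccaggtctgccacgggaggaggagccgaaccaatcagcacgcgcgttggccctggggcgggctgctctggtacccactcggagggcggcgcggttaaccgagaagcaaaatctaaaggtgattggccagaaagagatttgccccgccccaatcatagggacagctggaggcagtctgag
Asns: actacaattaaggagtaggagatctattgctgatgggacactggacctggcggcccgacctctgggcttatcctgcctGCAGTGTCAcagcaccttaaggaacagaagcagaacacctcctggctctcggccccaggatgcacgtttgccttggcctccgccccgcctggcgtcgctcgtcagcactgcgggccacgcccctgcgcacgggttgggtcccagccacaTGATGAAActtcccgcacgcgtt
Ddit4: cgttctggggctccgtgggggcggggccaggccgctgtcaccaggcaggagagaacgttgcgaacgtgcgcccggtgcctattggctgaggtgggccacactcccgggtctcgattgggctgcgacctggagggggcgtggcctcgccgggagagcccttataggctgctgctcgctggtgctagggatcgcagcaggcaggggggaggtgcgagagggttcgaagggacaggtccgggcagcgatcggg

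In Trib3 the composite letters lie after the start, TTACATCA on the gene's strand beginning at base 15 after it. The antioxidant letters begin 36 bases before the start in Sesn2 (TGACAGAGC) and at base 4 after it in Ppp1r15a (GCCGCGTCA on the gene's strand, a match on the opposite strand). The windows of Atf4, Ddit3, Ddit4, Psat1 and Xbp1 held none of the 3 motifs. The 3 genes with composite letters differed by 0.80 (Chac1), 0.53 (Trib3) and 0.049 (Asns), and whether the letters go with a difference was not tested. The 3 with antioxidant letters differed by 0.26 (Ppp1r15a), 0.058 (Sesn2) and 0.049 (Asns).

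**Figure D3:**
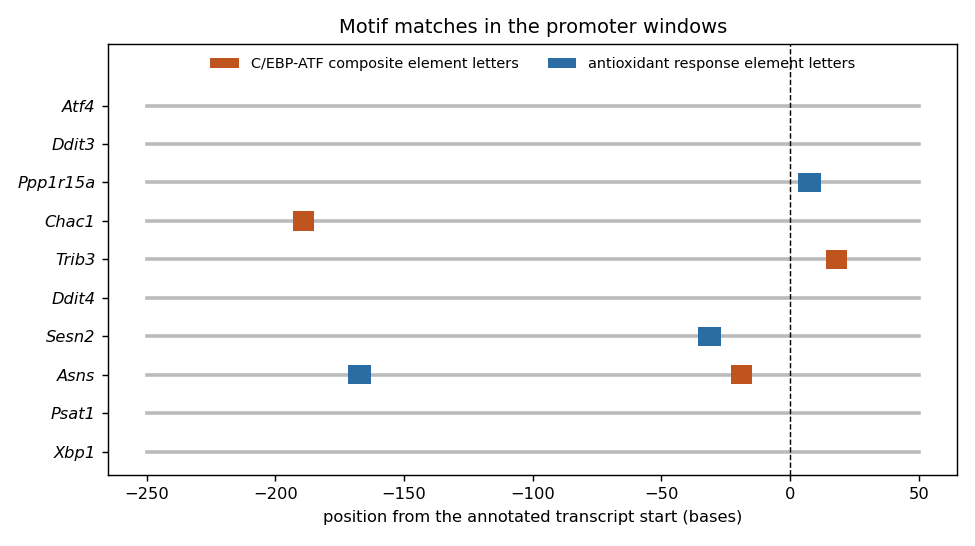
Position of motif letters (horizontal axis, bases from the annotated transcript start, marked by the dashed line) in the promoter window of each gene; grey lines are the windows, orange blocks the composite element of ATF4 and C/EBP factors and blue blocks the antioxidant response element. Chac1 and Trib3 carry only orange blocks, Sesn2 and Ppp1r15a only blue ones, and Asns both; 1 window is drawn per gene, and neither window of Psat1 held a match.

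The wider pathway was read from 7 lists with 115 names, of which 107 had a probe set of their own and all 107 were tested. None passed the threshold over all genes in limma, and 13 had an unadjusted p under 0.05, 11 higher and 2 lower, beside 7.09% and 5.87% of all genes tested. Of the 107, 40 were higher and 14 lower without overlap, beside 24.0% and 19.5% of all genes tested. At least 1.5-fold without overlap, 1 was higher, Impact, and 1 lower, Trib1, beside 1.32% and 1.49% of all genes. Their median difference was 0.065. The lists' medians lay between -0.013 and 0.17, and those of eIF2 control, stress transcription factors, amino acid transporters, tRNA synthetases and ER chaperones changed sign under other scaling or with an array left out.

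Upstream of ATF4, 14 genes of eIF2 kinases and eIF2 control were tested, with a median of 0.022. Without overlap 5 were higher and 2 lower, beside 24.0% and 19.5% of all genes tested. Impact, which encodes an inhibitor of the amino acid-sensing kinase GCN2, had 8.63 and 8.72 with DMSO and 9.40 and 9.38 with sulforaphane. Both sulforaphane arrays were higher, 1.64-fold in the mean, with a difference of 0.72 (0.45 to 0.98) and an adjusted p of 0.0785 by limma, which passed at the 60th-percentile filter (0.0388) and with an intensity trend (0.0079). Eif2ak2, the kinase PKR that senses double-stranded RNA and is itself induced by interferon, was 7.82 and 7.92 with DMSO and 7.57 and 7.38 with sulforaphane, a difference of -0.40 (-0.70 to -0.10). Eif2ak1, the heme-regulated kinase, differed by 0.25 (-0.023 to 0.52). The other kinases, named after their values were seen, were Eif2ak3 (PERK, the ER sensor) at 0.26 and Eif2ak4 (GCN2) at 0.19, both higher without overlap.

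Of 11 stress transcription factors (median 0.015) 4 were higher and 1 lower without overlap, beside 24.0% and 19.5% of all genes tested. Jdp2, a repressor of the AP-1 and ATF family, differed by 0.36 (0.058 to 0.66), the ER membrane factor Creb3l2 by 0.23 and Atf6, the sensor of the remaining ER stress arm, by 0.22 with overlapping groups. Creb3l2 differed by 0.11 without sulforaphane replicate 1. Atf3, a factor that ATF4 and LPS both induce, stood at 9.75 and 9.89 with DMSO and at 9.92 and 9.96 with sulforaphane, a difference of 0.12, and it was named after its values were seen.

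Among the amino acid genes, the synthesis enzymes had small differences, 11 of 12 above 0, where 7938 of all 14652 genes tested were. Without overlap 7 were higher and 1 lower, beside 24.0% and 19.5% of all genes tested. Of those counted, Aldh1l2, named after its values were seen, had 3.31 and 3.50 with DMSO and 3.56 and 3.60 with sulforaphane. Cbs, the 1 lower, had 3.80 and 3.81 with DMSO and 3.54 and 3.68 with sulforaphane. Both lay near the filter value of 2.91. The list had a median of 0.13 and no gene above 0.28. With median centring over the genes tested 5 did not overlap, in place of 8, and the median was 0.063. It was 0.077 without DMSO replicate 1 and 0.076 without sulforaphane replicate 2. Psph, the last enzyme of serine synthesis, differed by 0.28 (0.017 to 0.55), the mitochondrial one-carbon enzyme Mthfd1l by 0.21 and Cbs, which makes cystathionine, by -0.19, and the last 2 were 0.13 and -0.12 without sulforaphane replicate 1. Of 11 amino acid transporters (median 0.054) 5 were higher and 1 lower without overlap, beside 24.0% and 19.5% of all genes tested. Slc1a4, a carrier of alanine, serine and cysteine, had 6.03 and 5.94 with DMSO and 6.39 and 6.56 with sulforaphane, a difference of 0.49 (0.20 to 0.78). Slc7a11, the cystine carrier xCT that both ATF4 and NRF2 are known to induce, had 10.85 and 10.91 with DMSO and 11.36 and 11.23 with sulforaphane, a difference of 0.42 (0.14 to 0.69, adjusted p = 0.221 by limma). It has 2 probe sets, and with their mean the difference was 0.58. Slc3a2, the partner chain of xCT, differed by 0.22. These 3 carriers were named because they had the smallest p of the 11, so their shared separation says nothing about carriers in general. None of the 3 was called. Of the 11 carriers, 8 were above 0 and 3 below.

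The cytosolic aminoacyl-tRNA synthetases, which charge tRNAs and include many known ATF4 targets, were centred near 0, with a median of -0.013 and a range from -0.16 to 0.26. Of 18 tested, 6 were higher and 4 lower without overlap, beside 24.0% and 19.5% of all genes tested. The smallest p-values were those of Gars (0.26), Vars (-0.16) and Mars1 (-0.14), none of them under 0.05 unadjusted. The ER chaperones and other targets of XBP1 or ATF6 had 3 higher and 2 lower without overlap among 19 tested (median 0.058), beside the same shares of all genes. Of these 19, 0 had an unadjusted limma p under 0.05. Syvn1, the ER ubiquitin ligase, differed by 0.32 and the vesicle coat gene Sec24d by 0.24. Dnajb9, an ER cochaperone induced by XBP1, had 8.39 and 9.14 with DMSO and 9.33 and 9.07 with sulforaphane, so its difference of 0.43 (-0.18 to 1.04) came with overlapping groups and a low value on DMSO replicate 1, and was 0.060 without that array. Without the same array the differences of Syvn1, Atf6 and Gars were 0.19, 0.0085 and 0.080.

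The last list held other outputs of ATF4 or CHOP. It also held Trib1, Trib2, Sesn1, Sesn3 and Chac2, which are relatives of members and are not read here as such outputs. Of its 22 genes tested (median 0.17), 10 were higher and 3 lower without overlap, beside 24.0% and 19.5% of all genes tested. The unadjusted limma p was under 0.05 for 7, 6 higher and 1 lower, beside 7.09% and 5.87% of all genes tested. Trib1, a pseudokinase of the family of Trib3, was lower: it stood at 7.65 and 7.64 with DMSO and 6.82 and 6.76 with sulforaphane, a difference of -0.85 (-1.11 to -0.59) with an adjusted p of 0.0580 by limma, which passed at the 60th-percentile filter (0.0285), with a second quantile normalization (0.0360), with an intensity trend (0.0093) and with median centring over the genes tested (0.0228). Gabarapl1, a protein of the autophagosome membrane, had 9.31 and 9.39 with DMSO and 9.94 and 9.88 with sulforaphane, a difference of 0.56 (0.29 to 0.82). Sqstm1, the autophagy receptor p62 and also a known NRF2 target, had 10.85 and 10.92 with DMSO and 11.33 and 11.41 with sulforaphane, a difference of 0.48 (0.22 to 0.75). Both were higher on both sulforaphane arrays and short of the threshold, with adjusted p of 0.126 and 0.171 by limma, and both passed with an intensity trend (0.0185 and 0.0289).

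Other genes of this list were named after their values were seen. Atg12, Map1lc3b, Sesn1 and Sesn3 are its remaining genes with an unadjusted limma p under 0.05. Of the 22 genes of the list, 6 were below 0. The autophagy genes Atg12 and Map1lc3b differed by 0.50 and 0.30, and Wipi1, a further autophagy gene of the list, by 0.18. The sestrins Sesn1 and Sesn3 differed by 0.35 (5.94 and 5.90 with DMSO, 6.33 and 6.21 with sulforaphane) and 0.44 (6.55 and 6.73, then 6.91 and 7.24), both without overlap, while Sesn2 overlapped. Whether Sesn2 differed less than its relatives, or Trib1 from Trib3, was not tested.

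**Figure D4:**
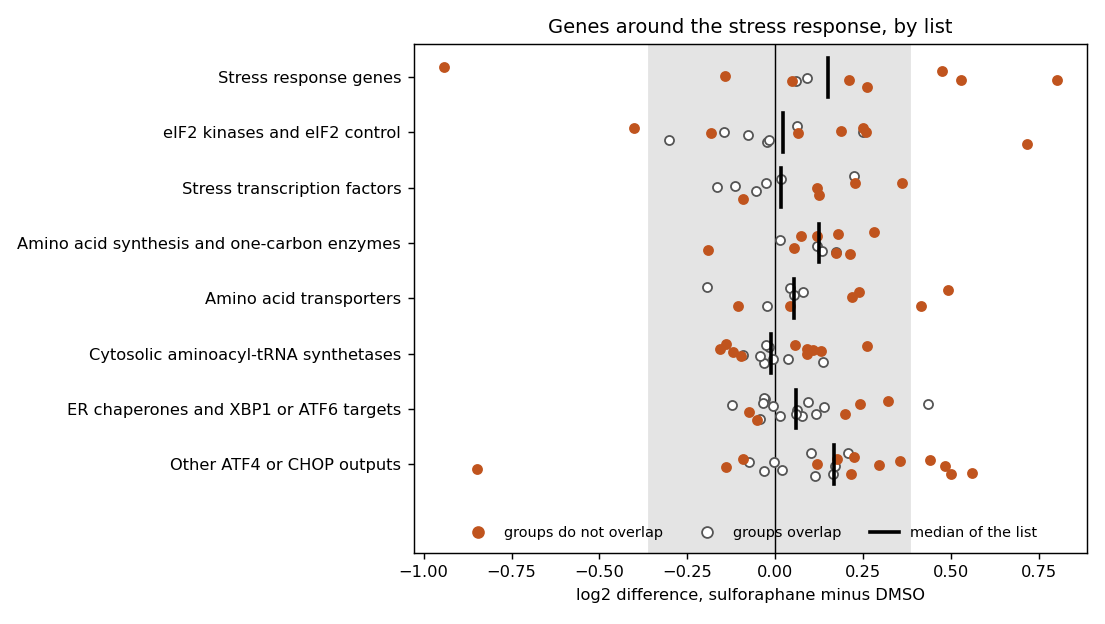
Log2 difference, sulforaphane minus DMSO (horizontal axis), of each tested gene in the 10-gene group (top) and the 7 lists around it; filled points mark groups that do not overlap, bars the list median, and the grey band the 5th to 95th percentile of all genes tested, while the vertical scatter within a list has no meaning. Medians lie between -0.013 and 0.17, and single genes such as Ddit4, Trib1, Chac1 and Impact stand outside the band.

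Chac1 had the highest and Ddit4 the lowest difference of the 10 with all arrays and with any single array left out. With any single array left out, Chac1 stayed between 0.72 and 0.88, Atf4 between 0.44 and 0.51 and Ddit4 between -1.09 and -0.79, while Sesn2 ran from -0.070 to 0.19. Median centring over the genes tested, a scaling chosen after seeing the data, moved each member down by the same amount, to 0.41 for Atf4 and -1.003 for Ddit4.

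**Figure D5:**
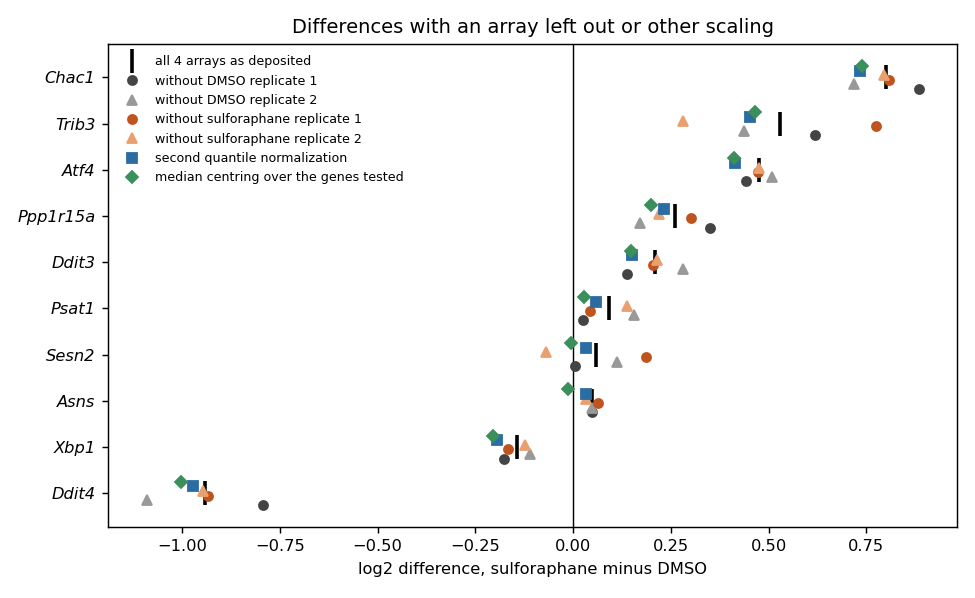
Log2 difference, sulforaphane minus DMSO (horizontal axis), of each gene with all 4 arrays as deposited (black bars), with an array left out (circles and triangles) and with other scaling (blue squares, a second quantile normalization; green diamonds, median centring over the genes tested). Chac1, Trib3, Atf4, Ppp1r15a, Ddit3 and Psat1 stay above 0 and Xbp1 and Ddit4 below it in the settings drawn, while Sesn2 and Asns cross 0.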

How the data were processed

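Total RNA of 4 dendritic cell samples was measured on Affymetrix arrays from biotin-labelled cRNA. Per the submitters' processing notes, RMA (background subtraction, quantile normalization between arrays and a summary per probe set) was run in R 2.15.1. The deposited values are taken as log2: the base is not written, and 2 follows from RMA and from how high the values go. For the genome build and any filter, nothing is given in the sources used here. Of 41345 probe sets, 23521 had exactly 1 symbol in the platform annotation, 1814 had several and 16010 were not listed. For each gene the probe set of highest mean was kept. Genes whose mean exceeded 2.91, the 40th percentile over probe sets, were tested with limma 3.58.1 in R 4.3.3 (lmFit, eBayes, Benjamini-Hochberg adjustment over all genes, threshold 0.05). Residual degrees of freedom were 2 and prior ones 4.02. Differences carry moderated standard errors and 95% intervals. The number of arrays limits the precision.

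Named genes are the 10 members and, from each of 7 lists, the 3 genes with the smallest p. The members and lists were chosen with earlier results of these data known. Of all listed names, 3 were matched through a synonym. The procedure was tested on simulated data. Alternatives were other filters, scalings, probe set rules and variance estimates, a replicate block and each array left out.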

Additional observations from a re-analysis of the deposited data

How the results depend on the processing

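Of the 10 stress response genes, 0 passed the threshold as analysed, against 2 with the filter at the 60th percentile (Chac1 and Ddit4) and 1, Ddit4, with a second quantile normalization, with an intensity trend and with median centring over the genes tested. Over all genes, 19 calls became 138 with that filter, 106 with a second quantile normalization, 34 when the probe sets of a gene were averaged, 249 with an intensity trend and 143 with median centring over the genes tested (chosen after seeing the data), and between 0 and 0 with an array left out. Leaving an array out gives a group of 1 array, assumed to vary like the other group, and 1 residual degree of freedom, so that loss of calls says little about stability. Why these counts moved was not tested. The replicate numbers do not pair the samples in the labels, and same-numbered arrays did not deviate together (correlation -0.081). With the replicate block 8 genes passed and 0 of the 10. The count of members at least 1.5-fold without overlap was 2 in the other settings and 3 without DMSO replicate 1 or without sulforaphane replicate 1. Sesn2 ran from -0.070 to 0.19 with an array left out and was -0.0042 with median centring over the genes tested, where Asns was -0.013. List medians near 0 changed sign. eIF2 control was -0.022 with a second quantile normalization, -0.018 with every probe set tested and -0.040 with centring over the genes tested. Stress transcription factors were -0.032 with a second quantile normalization, -0.047 with that centring and -0.042 to 0.11 with an array left out. Under that centring amino acid transporters were -0.0088 and ER chaperones -0.0040. tRNA synthetases were 0.0077 with median centring over all probe sets. With an array left out, tRNA synthetases ran from -0.027 to 0.027 and ER chaperones from -0.0041 to 0.085.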
